A study of Mus musculus with 237 samples.

Results

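Collagen-high mesenchymal cells were described in a single-cell RNA-seq table of mouse embryonic skin, in which each column is the library of 1 sorted cell. A column was called mesenchymal when it had at least 3000 genes with a count, Col1a1 and Col3a1 each at 100 CPM or more, and Krt8, Krt18, Krt5 and Krt14 all below 100 CPM. CPM is the rounded count of a gene per 1000000 counts of its column. Of 237 columns, 78 were mesenchymal, a share of 32.9% (exact 95% binomial interval 26.97% to 39.3%). Epithelial columns had both collagens below 100 CPM together with either Krt8 and Krt18 at 100 CPM or more or Krt5 and Krt14 at 300 CPM or more. They numbered 102, a share of 43.04% (exact 95% binomial interval 36.6% to 49.6%), of which 43 passed by Krt8 and Krt18 only, 57 by Krt5 and Krt14 only and 2 by both. The remaining 57 columns were in neither class. The intervals cover the error of counting and nothing else, and amplified reads that carry no molecular identifier are not independent.

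The labels list 66 cells from 3 wild-type embryos and 171 cells from 7 Trp63 mutant (p63 knockout) embryos, all at E14.5, on a C57BL/6N background and carried by surrogate ICR mothers. Trp63 encodes p63, a transcription factor needed for stratified epithelium, and was edited with Cas9 in zygotes. Wild-type epidermis was parted from dermis with dispase before trypsin, whereas knockout fetuses went into trypsin directly. Live cells without CD45, TER119 and CD140a on their surface were sorted, and per the study's methods their cDNA was then screened by qPCR, for Krt5 in wild-type and Krt8 in knockout cells and for the absence of Pdgfra product. The labels name this screen for mutant cells alone. The columns carry sequencing run names only and were tied to no embryo, genotype or labelled type. All columns therefore form 1 pooled set with no replicates, and no test was run over cells. The binomial intervals take columns as independent draws, and cover neither differences between embryos nor the choice of cells by sort and screen. Total counts lay between 2701500 and 9838162 per mesenchymal column (median 6085480) and between 4217181 and 18209756 per epithelial column (median 7854810).

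Dermal fibroblasts build the connective tissue of skin by secreting collagen chains that assemble into triple helices and then fibrils, with proteoglycans such as lumican and decorin setting the spacing of the fibrils. In the embryonic trunk, dorsal dermis and skeletal muscle both descend from somites. PDGFRA, the antigen CD140a, is a receptor of platelet-derived growth factor and a common surface marker of fibroblasts.

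The number of mesenchymal columns was set beside the labels, which annotate 72 cells as mutant fibroblasts or as Vim high. The columns exceeded these by 6. Of the 72 labels, 70 were mutant fibroblasts of the knockout embryo MU01 and 2 were Vim-high cells of the wild-type embryo WT02. All 85 labelled cells of MU01 were 70 mutant fibroblasts, 12 unknown cells and 3 cells of the surface ectoderm remnant. The 78 mesenchymal columns fell into 70 with Lum at 951 CPM or more and 8 with Lum at 20.6 CPM or less, with none between. Lum did not enter the rule, and this division at 100 CPM was chosen after its values were seen. The 70 columns equal the 70 mutant fibroblast labels in number, and the 8 others together with 4 columns just outside the rule come to 12, the number of unknown cells of MU01. Equal numbers do not link a column to a label, and no link was made.

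The columns next to the collagen threshold were separated by Col1a1 alone. The 5 lowest mesenchymal columns had Col1a1 at 101, 116, 177, 188 and 258 CPM, with Col3a1 between 1225 and 4562 CPM. Just outside, 4 columns had Col1a1 at 97.3, 87.5, 80.3 and 53.3 CPM, with Col3a1 at 5100, 1833, 3818 and 972 CPM and no keratin of the rule at 100 CPM. In 3 of these 4, all 7 genes of the Schwann and neural crest list were at 10 CPM or more, among them Sox10, a transcription factor of neural crest, at 905, 283 and 621 CPM. The column with Col1a1 at 80.3 CPM instead had Myod1, the myogenic regulator, at 585 CPM and Cdh15, the cadherin of muscle precursors, at 933 CPM. At the keratin side, the highest of the 4 keratins in a mesenchymal column was 2.11 CPM. Outside the rule, 1 column of neither class passed both collagen thresholds, with Col1a1 at 540 CPM and Col3a1 at 3542 CPM. It was kept out by Krt8 at 169 CPM and Krt18 at 192 CPM, while its Epcam was 2.52 CPM and its Cdh1 1.68 CPM.

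The markers went with the label mesenchymal, and they are given as a description because their cells were chosen on the same measurement. Col1a1, a chain of type I collagen, ranged from 101 to 28120 CPM over the mesenchymal columns (median 13894), and its highest value in an epithelial column was 38.9 CPM. Col3a1, the chain of type III collagen, ranged from 1225 to 58752 CPM (median 32782) against an epithelial maximum of 88.4 CPM. Both were selection genes, so the gap between the classes follows from the rule. Col1a2, the partner chain in type I collagen, ranged from 300 to 38898 CPM (median 17415) and reached 10 CPM in 13 of 102 epithelial columns. Lum, which encodes lumican, had a median of 4256 CPM and reached 10 CPM in 75 of 78 mesenchymal and 5 of 102 epithelial columns. Of the 75, 70 were at 951 CPM or more and the rest at 20.6 CPM or less. Dcn, which encodes decorin, did not separate the classes. It had a median of 3426 CPM in mesenchymal and 409 CPM in epithelial columns, and 90 of 102 epithelial columns reached 10 CPM.

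Levels between genes were compared per kilobase of exon in the summed mesenchymal columns. Col3a1 had rank 3 among 11121 genes (3226 CPM per kb), Col1a1 rank 5 (2040 CPM per kb) and Lum rank 7 (1680 CPM per kb). Sparc, a collagen-binding glycoprotein, was at 1186 CPM per kb and Dcn at 567 CPM per kb. Vim, the intermediate filament of mesenchymal cells, was at 237 CPM per kb and Pdgfra at 26.4 CPM per kb. Col1a1, Col1a2 and Col3a1 together took between 0.214% and 12.2% of the counts of a mesenchymal column (median 6.17%).

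**Figure D1:**
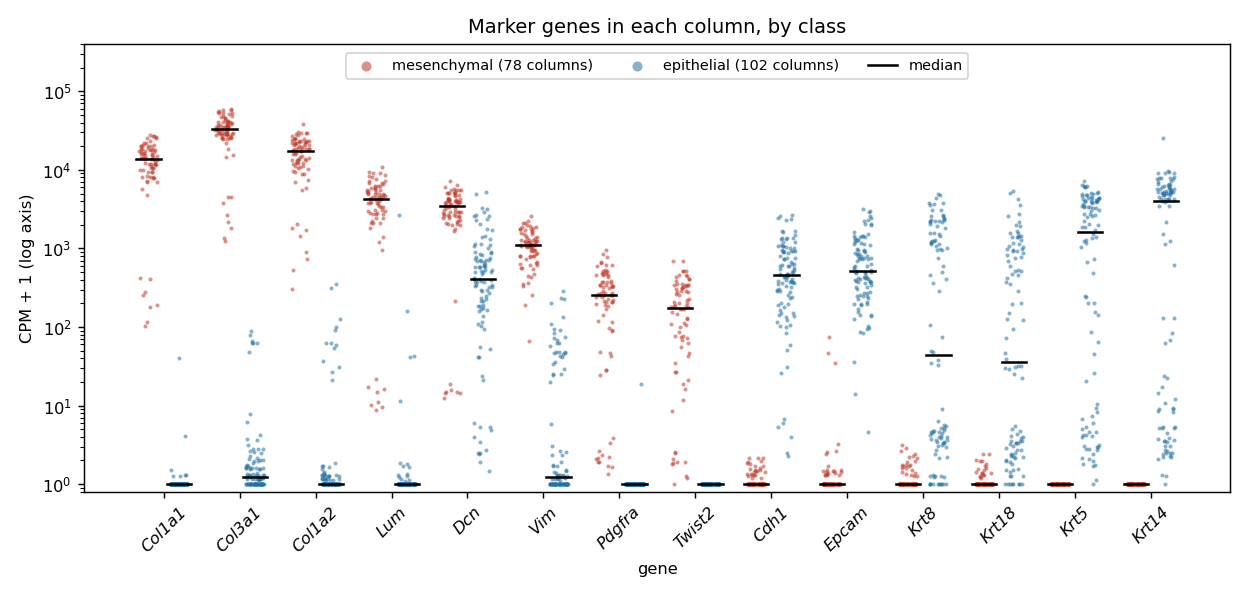
CPM + 1 on a log axis for 14 genes, with 1 point per column, mesenchymal in red (78 columns) and epithelial in blue (102 columns), and a black bar at the median. The collagens, Lum, Vim, Pdgfra and Twist2 lie high in red and the keratins, Cdh1 and Epcam in blue, Dcn overlaps, and a lower group of red points is seen for Lum and Dcn.

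Fibroblast genes that did not enter the rule were mostly high as well. Vim had a median of 1091 CPM and its lowest mesenchymal value was 64.4 CPM. Pdgfra was at 10 CPM or more in 66 of 78 mesenchymal columns (median 257 CPM) and in 1 of 102 epithelial columns. These RNA values stand beside a sort for cells without surface CD140a, its product, and a qPCR screen against Pdgfra cDNA. Krt8, the gene screened for in knockout cells, did not exceed 2.11 CPM in the 78 columns. The relation of these values to the sort and the screen was not tested. Twist2, a transcription factor of dermal precursors, was at 10 CPM or more in 67 of 78 mesenchymal columns (median 174 CPM) and had no count in an epithelial column. Thy1, another surface marker of fibroblasts, reached 10 CPM in 13 columns only. Epithelial genes were near 0 in most columns. Krt5 and Krt14 had no count in the 78 columns, Dsp, a desmosomal protein, also had none, and Cdh1 did not exceed 1.17 CPM. Epcam reached 10 CPM in 3 columns, the highest at 74.5 CPM, and Trp63 in 2, the highest at 50.6 CPM. Perp reached it in 1 column, at 109 CPM, and Krt19 in 1, at 28.7 CPM. The Trp63 counts do not check the genotype, since an edited gene can still be transcribed.

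Markers of other cell types were silent for some lists and present for others. A count of 0 of 78 columns allows a share of up to 3.85%. Ptprc, which encodes CD45, had no count in any mesenchymal column, nor had the endothelial genes Pecam1 and Tie1. Other endothelial genes were present, with Tek, the angiopoietin receptor, at 10 CPM in 8 columns and Egfl7, a secreted endothelial protein, in 27, although Egfl7 also reached it in 53 epithelial columns. Of the adipocyte precursor list, Adipoq had no count, whereas Zfp423 and Pparg, regulators of adipocyte commitment, reached 10 CPM in 39 and 22 columns. In the comparison with epithelial columns described next, 3 of 4 compared genes of that list were at least 8-fold higher in mesenchymal columns. Sox10 did not exceed 0.853 CPM and Pmel, a melanosome protein, reached 10 CPM in 1 column. Haemoglobin genes were at most 10.7 CPM, whereas Hba-a1 reached 10 CPM in 19 of 102 epithelial columns. The leukocyte and erythroid list, which holds these genes, summed to as much as 467160 CPM in an epithelial column (median 0.329 CPM). Such columns are part of the epithelial sums. Acta2, the smooth muscle actin, reached 10 CPM in 40 columns, and at least 3 of the 6 smooth muscle genes did so in 6 of 27 columns of the Agtr2-high group described below. Runx2, a bone regulator, reached it in 31 columns and Sox9, a cartilage regulator, in 29. Of the tendon and fascia list, 3 of 6 measured genes were high enough to compare, and 2 of these were higher. Of the neuron list, 2 of 7 were compared and 2 were higher. The share over all compared genes was 5.64%. Among neuron genes, Nefl reached 10 CPM in 9 columns, Nefm in 7 and Stmn2 in 6. The part of other cell types in the mesenchymal values was not tested, and the skeletal muscle and pericyte lists are described below with the columns that carry them.

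Across all genes, 11155 reached 10 CPM in the summed counts of either class and were compared with a pseudocount of 1 CPM. Of these, 629 (5.64%) were at least 8-fold higher in the mesenchymal sum and 560 (5.02%) at least 8-fold lower. The median log2 ratio of all compared genes was −0.27. Without the 8 Lum-low columns, an alternative chosen after seeing the data, 626 genes were higher and 592 lower. For 17 genes, the lowest mesenchymal column exceeded the highest epithelial one, and for Cdh1, Pkp3 and Dsp every mesenchymal column lay below every epithelial one. Some of the 17 were parted by very low values. Abca9, for instance, was as low as 0.253 CPM in a mesenchymal column, with no count in the epithelial columns. Cdh1, Pkp3 and Dsp were parted by very low values too. Cdh1 was at most 1.17 CPM in mesenchymal and as low as 1.26 CPM in epithelial columns. Those values were 0.55 and 0.95 CPM for Pkp3, and 0 and 0.26 CPM for Dsp.

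The 20 genes with the highest ratio, among those at 10 CPM in at least 80% of mesenchymal columns, were led by Col1a1 (chr11:94936224-94953042), with a log2 ratio of 13.28, and Col3a1 (chr1:45311538-45349706), with 12.49. Positions are those of mm10. Col6a1 (chr10:76708792-76726168) and Col6a2 (chr10:76595762-76623630) encode chains of the beaded filament collagen VI and followed at 11.91 and 11.37. Neither had a count in the 102 epithelial columns, so that with 3 counts over the class as the limit Col6a1 was at least 1180400-fold higher and Col6a2 at least 814690-fold higher. Vcam1, a cell adhesion molecule, was at least 393430-fold higher by the same limit, and Cd34, a sialomucin, at least 99965-fold higher. Those bounds rest on the sums and take reads as independent, which amplified reads are not. They set no limit for single cells, and the values by column were uneven. Vcam1 reached 10 CPM in 70 of 78 columns and Cd34 in 71. Further down stood Nid2, a basement membrane linker (9.08), Mfap4, a microfibril glycoprotein (8.71), Cdh11, a cadherin of mesenchyme (8.68), Crabp1, a retinoic acid binding protein (8.56), and Adamts2, a procollagen peptidase (8.55). Gm47302 (chr1:45311673-45311813) lies within the first part of Col3a1 on the same strand, and its 8.51 is uncertain because the reads of both cannot be told apart.

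Dnm3os, a long noncoding RNA on the opposite strand of Dnm3 (chr1:162217623-162225550), had the ninth highest ratio (9.10). It ranged from 3.29 to 1729 CPM (median 481), reached 10 CPM in 77 of 78 mesenchymal columns and had no count in an epithelial column. With 3 counts over the class as the limit it was at least 168250-fold higher in the sums, again with reads taken as independent. It is shown with the miRNAs it hosts because these are its known products. Without a stated strand setting, reads of Dnm3os and Dnm3 could be mixed, and Dnm3 reached 10 CPM in 38 of 78 mesenchymal columns (median 6.57 CPM) and in 1 of 102 epithelial columns. The mature miRNAs themselves were not measured. Their RefSeq sequences (GRCm38.p6) are given 5′ to 3′ with the seed, bases 2 to 8, in capitals, and no 2 of the 4 share a seed.
mmu-miR-199a-5p: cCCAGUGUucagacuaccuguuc
mmu-miR-199a-3p: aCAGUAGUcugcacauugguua
mmu-miR-214-5p: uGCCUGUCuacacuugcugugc
mmu-miR-214-3p: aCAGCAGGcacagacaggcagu

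The promoters of Col3a1, Col1a2 and Twist2 are printed as those of a rule gene, a type I collagen chain and a dermal transcription factor. Of the 3, Col1a2 overlapped between the classes, with 300 CPM as its lowest mesenchymal and 355 CPM as its highest epithelial value, and Twist2 was below 10 CPM in 11 of 78 mesenchymal columns. Each run is the 250 bases before the RefSeq start of the gene (GRCm38.p6), read on the gene's strand, which is plus in each case. They cover chr1:45311288-45311537 for Col3a1, chr6:4505368-4505617 for Col1a2 and chr1:91801211-91801460 for Twist2. The motifs CCAAT and TATAAA were searched on both strands and are in capitals. TATAAA began 117 bases before the start of Col3a1, CCAAT 109 bases before that of Col1a2 and CCAAT 63 bases before that of Twist2. RefSeq windows were found for 13 of the 20 genes with the highest ratio. CCAAT occurred in a window of 4 of the 13 and in 33.9% of 32851 windows, and TATAAA in 2 of the 13 and in 12.4% of windows. A match describes the letters and is no evidence of a factor.
Col3a1: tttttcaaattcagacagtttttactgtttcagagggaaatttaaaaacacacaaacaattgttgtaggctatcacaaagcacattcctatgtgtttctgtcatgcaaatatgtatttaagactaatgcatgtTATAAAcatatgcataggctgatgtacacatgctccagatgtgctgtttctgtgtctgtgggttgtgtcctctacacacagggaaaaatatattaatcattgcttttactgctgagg
Col1a2: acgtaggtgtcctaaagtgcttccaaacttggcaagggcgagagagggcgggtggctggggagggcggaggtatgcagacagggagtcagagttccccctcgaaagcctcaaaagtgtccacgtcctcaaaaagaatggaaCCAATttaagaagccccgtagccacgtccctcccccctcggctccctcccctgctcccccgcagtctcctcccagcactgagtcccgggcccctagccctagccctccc
Twist2: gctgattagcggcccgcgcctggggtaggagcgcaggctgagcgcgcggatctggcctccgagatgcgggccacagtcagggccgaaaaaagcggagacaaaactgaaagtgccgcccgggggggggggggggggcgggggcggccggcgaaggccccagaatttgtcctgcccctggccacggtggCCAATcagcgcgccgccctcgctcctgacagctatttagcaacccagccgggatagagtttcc

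Most compared collagen genes were higher in the mesenchymal sum. Of 9 compared fibrillar collagens, 7 were at least 8-fold higher and 0 lower, with a median log2 ratio of 4.26 over the 11 measured. Col1a1 and Col3a1 are among the 7 and were fixed by the rule, and without them 5 of 7 compared genes were higher (median 3.75). Col5a1 and Col5a2, chains of the fibril-nucleating collagen V, had log2 ratios of 4.26 and 3.75. Col2a1, the cartilage collagen, reached 10 CPM in 1 column. Of 10 compared fibril-associated and other collagens, 8 were higher (median 4.58 over those measured), with Col6a3 at 7.99, Col16a1 at 5.35 and Col14a1 at 4.90. Col8a1 was at −0.02.

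Proteins that fold and crosslink collagen went the same way, with 11 of 21 compared genes higher and 0 lower (median 2.96). Lox, a lysyl oxidase that crosslinks collagen, had a log2 ratio of 7.73 and a median of 1268 CPM, and reached 10 CPM in 72 columns. Serpinh1, the collagen chaperone HSP47, was at 3.13 with at least 143 CPM in each mesenchymal column. Fkbp10, a prolyl isomerase of collagen folding, was at 5.56. P4ha1, a prolyl hydroxylase, was at 2.29 and Ppib, another prolyl isomerase, at 1.77, both under 8-fold. Both P4ha1 and Ppib reached 10 CPM in most epithelial columns, with 64 and 97 of 102.

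Small leucine-rich proteoglycans were higher in 5 of 8 compared genes (median 2.48), among them Lum (7.35), Aspn, which encodes asporin (6.94), and Ogn, which encodes osteoglycin (5.94). Dcn was at 2.10, and Fmod, which encodes fibromodulin, at −0.21. Of 15 compared elastic fibre and microfibril genes, 7 were higher (median 2.95), with Emilin1 at 8.33, Fbn1 at 5.29 and Eln, which encodes tropoelastin, at 5.03. Ltbp4 was at 0.14. Matricellular and adhesive glycoproteins were higher in 8 of 12 (median 3.04), with Fn1, which encodes fibronectin, at 5.70, and Tnc, which encodes tenascin C, at 3.03. Postn, which encodes periostin, was at 2.16, and 77 of 102 epithelial columns had it at 10 CPM or more. Matrix proteases and their inhibitors were higher in 6 of 15 (median 2.91), led by Ctsk, the collagen-degrading cathepsin K, at 7.92.

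Basement membrane genes were split. Of 17 compared, 4 were higher and 6 lower (median 1.05). The 4 higher ones were Nid2 (9.08), Lama4 (6.40), Nid1 (6.25) and Lama2 (5.83). The lower ones included Lama3 (−6.83) and Lamb3 (−5.05), laminin chains of the epidermal basement membrane, and Col18a1 (−3.21). Col4a1, a chain of the common collagen IV, was at 2.15 and reached 10 CPM in 75 mesenchymal and 70 epithelial columns.

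**Figure D2:**
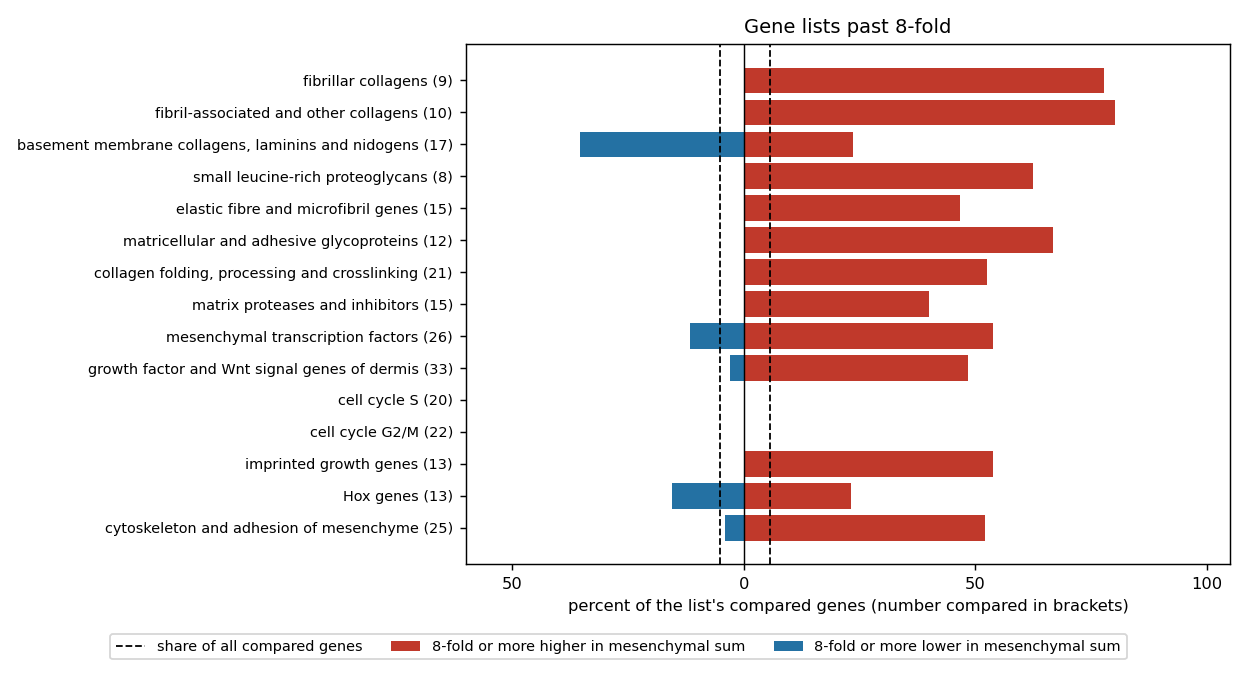
Percent of the compared genes of each list at least 8-fold higher (red, to the right) or lower (blue, to the left) in the summed mesenchymal columns than in the summed epithelial columns, with the number compared in brackets. Dashed lines mark the share over all compared genes, 5.64% higher and 5.02% lower, and among the matrix lists the basement membrane list alone has a bar to the left.

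Mesenchymal transcription factors were higher in 14 and lower in 3 of 26 compared genes (median 1.03 over all 40 listed). Zeb2 and Zeb1, repressors of epithelial genes, had log2 ratios of 8.21 and 7.25, Osr1 8.13, Tbx15 7.28 and Prrx1 6.56. Snai2 was at 0.17 and reached 10 CPM in 52 of 102 epithelial columns. The 3 lower genes were Msx2 (−4.24), Msx1 (−3.74) and Lef1 (−3.58). Tcf21 and Foxd1 had no count above 0 in these columns and En1, a factor of dorsal dermis, reached 10 CPM in 20.

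Growth factor and Wnt signal genes were higher in 16 and lower in 1 of 33 compared (median 2.54). Among receptors, Pdgfra was at 7.83, Pdgfrb at 7.75 and Fgfr1 at 3.41. Among ligands, the chemokine gene Cxcl12 was at 7.82 and reached 10 CPM in 65 columns, Wnt11 was at 6.61 with 57 columns and Wnt5a at 5.84 with 72 columns. Fgf7, a growth factor for keratinocytes, was at 5.56 but reached 10 CPM in 28 columns only, and Fgf10 at 4.47 in 17. Ligands such as Cxcl12 and Wnt5a were thus found in most columns, and Fgf7 and Fgf10 in a minority. Axin2, a target of canonical Wnt signalling, reached 10 CPM in 2 columns.

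Imprinted growth genes were higher in 7 and lower in 0 of 13 compared (median 3.01). Dlk1, a Notch-like protein of precursor cells, was the highest (8.04) and lay between 130 and 3644 CPM in the 78 columns. H19 was at −0.23 and Igf2 at 1.66. Cytoskeleton and adhesion genes were higher in 13 and lower in 1 of 25 (median 3.14), with Ddr2, a collagen receptor, at 8.13 and Lgals1, a galectin, at 5.03. Of 12 dissociation stress genes, 0 were higher and 2 were lower, Atf3 (−4.33) and Hspa1b (−3.68), with a list median of −1.70. Since the wild-type and knockout skins were dissociated in different ways and the columns carry no genotype, the part of dissociation in these values was not tested.

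The 10 genes with the lowest ratio were epithelial. They ranged from Krt15, a basal keratin (−11.60), to Wnt7b, an epidermal Wnt ligand (−8.12). Between them stood Perp, Cdh1, Pkp3, Fgfbp1, Sfn, Cldn4 and Kremen2. All 18 genes of the epithelial list were at least 8-fold lower, but Krt5, Krt14, Krt8 and Krt18 among them had defined the classes. Without these, the count was 14 of 14 and the median log2 ratio −7.95.

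Variation among the mesenchymal columns was ranked by the SD of log2(CPM + 1) over columns, for genes at 10 CPM or more in 20% to 80% of them. The 20 most variable of 6671 such genes held 5 genes of the G2/M list, including Top2a, which unwinds DNA and ranged from 0 to 2159 CPM, and Ccnb1, a mitotic cyclin that ranged from 0 to 3578 CPM. The most variable was Rtl3, a retrotransposon-derived gene on the X chromosome, at 10 CPM or more in 36 columns and up to 1679 CPM. Wif1, a secreted Wnt inhibitor, also reached 10 CPM in 36 columns, Igfbp4, which binds insulin-like growth factors, in 54, Agtr2, the type 2 angiotensin II receptor, in 57 and Aspn in 28.

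Clustering of the 78 columns on 1000 variable genes gave 4 groups of 31, 27, 13 and 7 columns. The first principal component held 9.98% of the variance and the second 7.46%. Their leading genes defined the groups, so these are named as a description. The group of 31 was led by Cpxm2, Bcl11b, Crabp1, Rspo1 and Lix1 and is called Crabp1-high. The group of 27 was led by Akap12, Igfbp4, Agtr2, Dpt and Dkk2 and is called Agtr2-high. The group of 13 was led by the mitotic genes Aurkb, Kif11, Nusap1, Depdc1a and Plk1 and is called G2/M-high. The group of 7 was led by the muscle genes Actc1, Cdh15 and Msc with Gatm and Fgfr4, and is called skeletal-muscle-like.

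In the Crabp1-high columns, Crabp1 lay between 502 and 3689 CPM (median 1908), and in the Agtr2-high columns between 2.19 and 1274 CPM (median 70.7). Bcl11b, a zinc finger transcription factor, was at 10 CPM or more in 31 of 31 and 9 of 27 columns. Rspo1, a secreted enhancer of Wnt signalling, reached 10 CPM in 31 of 31 and 16 of 27. Lef1, a transcription factor of the Wnt pathway, reached 10 CPM in 20 of 31 Crabp1-high and 0 of 27 Agtr2-high columns, and Col7a1, the anchoring fibril collagen, in 30 of 31 and 7 of 27. Crabp1 was high in the G2/M-high group too, at 33.4 to 2337 CPM (median 1516), with 13 of 13 columns at 10 CPM or more. Bcl11b reached 10 CPM there in 11 of 13 columns and Lef1 in 7, and Rspo1 and Col7a1 were also found.

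In the Agtr2-high columns, Agtr2 lay between 1330 and 6932 CPM (median 2456) against a median of 115 CPM in the Crabp1-high columns. Dpt, the matrix protein dermatopontin, reached 10 CPM in 27 of 27 and 15 of 31 columns. Dkk2, a secreted Wnt modulator, reached 10 CPM in 22 of 27 and 1 of 31, Fgf7 in 22 of 27 and 2 of 31 and Fgf10 in 15 of 27 and 1 of 31. Mfap5, a microfibril gene, reached 10 CPM in 10 columns and Dpp4, the protease CD26, in 8, and each of those columns was Agtr2-high. Igf1 had a median of 180 CPM in Agtr2-high and 0.781 CPM in Crabp1-high columns. Agtr2 and Bcl11b were not exclusive, since 8 of the 58 columns of these groups had Bcl11b at 100 CPM and Agtr2 at 1000 CPM or more.

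The dermal layer lists were not used to name the groups, and they leaned in opposite directions with overlap. The papillary (upper) dermis list had a median of 4 of 8 genes at 10 CPM in Crabp1-high and 3 of 8 in Agtr2-high columns, and the reticular (lower) dermis list 3 of 8 and 4 of 8. At least 4 of 8 papillary genes reached 10 CPM in 24 of 31 Crabp1-high and 12 of 27 Agtr2-high columns. For the reticular list these were 10 of 31 and 16 of 27. Papillary Apcdd1 reached 10 CPM in 28 of 31 and 13 of 27, and reticular Igfbp3 in 2 and 12. Some members went the other way, with papillary Dpp4 in 0 and 8 columns and reticular Tgm2 in 13 and 4. In the comparison with epithelial columns, 2 of 7 compared papillary genes were higher and 1 lower, with a median of −0.62 that was 0.98 against the Krt8 and Krt18 columns alone and 0.27 against the Krt5 and Krt14 columns alone. Of 7 compared reticular genes, 4 were higher and 1 lower (median 3.06), led by Dlk1. Of the dermal condensate list, Sox2 did not exceed 0.547 CPM in a mesenchymal column and Foxd1 had no count.

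**Figure D3:**
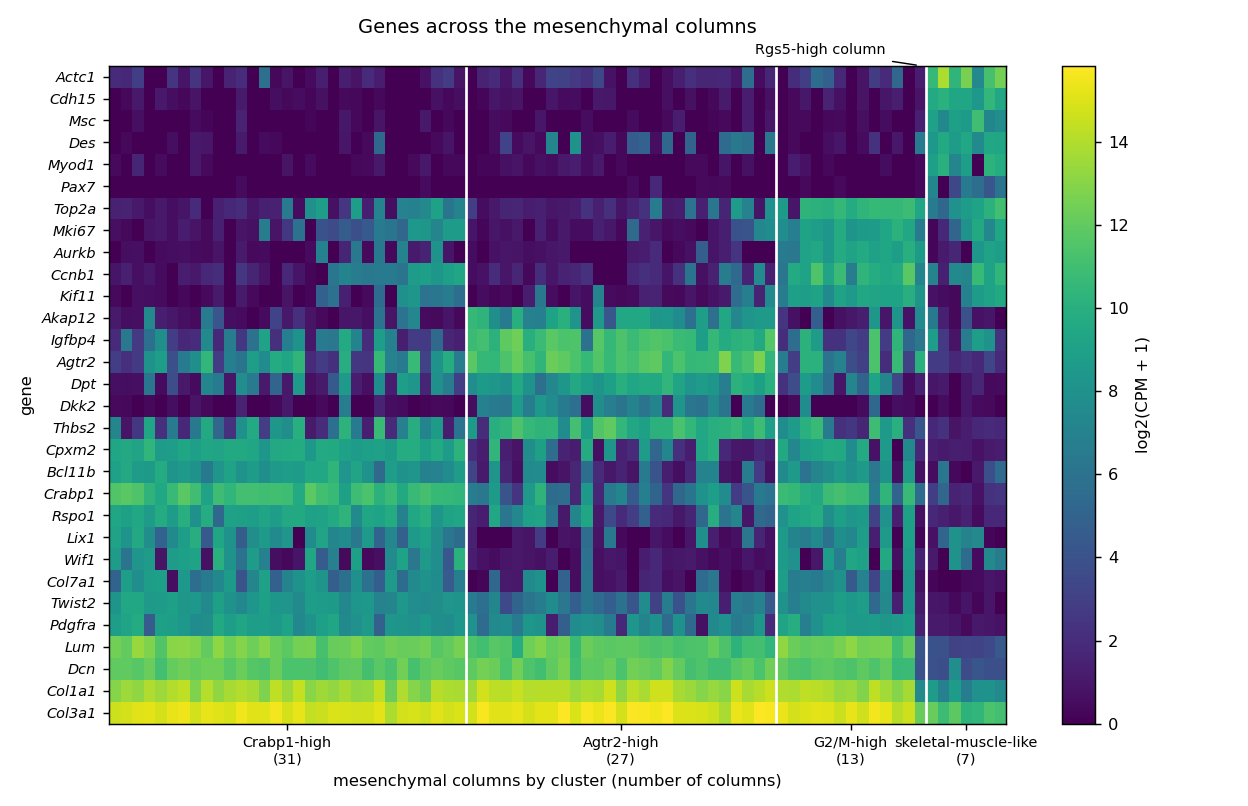
Log2(CPM + 1) of 30 genes in the 78 mesenchymal columns, ordered by cluster, with the number of columns in brackets. Crabp1 and Bcl11b are bright in the first block and in most columns of the third, where mitotic genes are bright as well. Agtr2 and Igfbp4 are bright in the second. In the last block the muscle genes are bright and Lum, Dcn, Pdgfra and Twist2 dark. The Rgs5-high column shares that dark Lum and Dcn.

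The 7 skeletal-muscle-like columns passed the collagen rule at low values. Their Col1a1 ranged from 101 to 414 CPM and Col3a1 from 1225 to 4541 CPM, against at least 4790 and 14662 CPM in the 70 Lum-high columns. Between 4 and 7 of the 9 skeletal muscle genes were at 10 CPM or more in each, against 0 to 3 in the 70. Des, the muscle intermediate filament, lay between 181 and 774 CPM in the 7. Myod1 was at 1189, 1067, 885, 498, 469, 149 and 0 CPM. In the same order, Myf5, an early myogenic regulator, was at 117, 0.828, 70.02, 42.3, 6.96, 129 and 412 CPM. Myog, which marks differentiating muscle cells, was at 1861 CPM in the second column and at 46.6 CPM or less in the other 6. Pax7, a marker of muscle precursors, was at 10 CPM or more in 5 of the 7 and reached 155 CPM. The column with no Myod1 thus had the highest Myf5, and the column with the highest Myog had no Pax7.

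Fibroblast genes were lower in these 7. Pdgfra did not exceed 1.24 CPM, Pdgfrb 2.13 CPM and Twist2 0.939 CPM, whereas in the 70 Lum-high columns Pdgfra reached 10 CPM in 66 and Twist2 in 67. Of 16 fibroblast genes, 6 to 9 were at 10 CPM or more in a muscle-like column and 12 to 16 in a Lum-high column. Igfbp3 was at least 244 CPM and Col18a1 at least 69.6 CPM in each of the 7. Without the skeletal-muscle-like columns, the median log2 ratio of the skeletal muscle list went from 3.49 to 0.19. For these 7 the name mesenchymal rests on the collagen genes of the rule, and their leading genes are those of muscle.

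The eighth Lum-low column stood in the G2/M-high group and was singled out after its values were seen. It was the one mesenchymal column with Rgs5, a regulator of G protein signalling typical of pericytes, at 10 CPM or more, with 783 CPM against at most 0.389 CPM in the 70. It also had Kcnj8 and Abcc9, subunits of a potassium channel of mural cells, at 1081 and 730 CPM, Mcam at 942 CPM, Pdgfrb at 650 CPM, Cspg4 at 512 CPM and Notch3 at 359 CPM. In all, 7 of the 8 pericyte genes reached 10 CPM, and Higd1b, at 0.134 CPM, did not. The 70 Lum-high columns had 1 to 6 of the 8, and 12 of 27 Agtr2-high columns had at least 4. Among the 70, Pdgfrb reached 657 CPM and Kcnj8 873 CPM, and of the 7 genes Rgs5 alone was below 10 CPM in each of the 70. Col4a1 was at 4313 CPM, the highest mesenchymal value. Its Lum was 16.4 CPM, Dcn 14.8 CPM, Pdgfra 1.61 CPM, Twist2 1.07 CPM and Col1a1 188 CPM, with Col3a1 at 4562 CPM and Prrx1 at 542 CPM. Without the 8 Lum-low columns, the median log2 ratio of the pericyte list went from 3.44 to 1.52.

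Low counts of fibroblast genes were seen in the muscle-like columns. Each of the 7 had Lum between 7.84 and 20.6 CPM and Pdgfra between 0.348 and 1.24 CPM, and all 4 columns just outside the rule had Lum between 13.4 and 32.1 CPM. In the epithelial columns, Lum had no count in 86 of 102 and Pdgfra had a count in 1. Conversely, Krt5 had no count in any of the 78 mesenchymal columns and had one in 101 of 102 epithelial columns. Some keratin-high columns of neither class shared these low counts. Among them, columns with Krt8 at 542, 4056 and 1951 CPM had Lum at 19.8, 66.7 and 34.2 CPM. Their Pdgfra was at 0.353, 2.93 and 1.14 CPM, and they had no count of Krt5 or Krt14. In column order, the 78 mesenchymal columns, the 4 just outside the rule and these keratin-high columns lay between columns 25 and 109. No epithelial column lay in that run. Each column of the run had a count of Lum and Pdgfra and none of Krt5 or Krt14. For low counts, and for genes with no count in a class, class and place in this order cannot be told apart. Altogether 9 genes had a count in each mesenchymal and no epithelial column, and 8 of these also had a count in each of the 4 columns outside. The source of such low counts was not tested, and values below 10 CPM are not read as expression here.

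Within the 70 Lum-high columns, collagen genes varied together. The values are rank correlations across cells that share a library method and a total, and they are a description. Spearman's rho of Col1a1 and Col1a2 was 0.91 over the 78 columns and 0.88 over the 70. It was 0.81 and 0.74 for Col1a1 and Col3a1, and 0.82 and 0.75 for Col6a1 and Col6a2. For Lum and Dcn it was 0.33 over the 78 and 0.07 over the 70, so that their joint variation rested on the 8 Lum-low columns. Crabp1 and Igfbp4 were opposed, with −0.64 over the 78 and −0.83 over the 70.

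Cycling columns were counted as those with at least 11 of 22 G2/M genes at 10 CPM or more. They made up 35 of 78 mesenchymal columns, 44.9% (exact 95% binomial interval 33.6% to 56.6%), and 45 of 102 epithelial columns, 44.1% (34.3% to 54.3%). By group, they were 13 of 31 Crabp1-high, 4 of 27 Agtr2-high, 13 of 13 G2/M-high and 5 of 7 skeletal-muscle-like columns, and G2/M genes helped to define the groups. At the other end, 25 mesenchymal columns had 0 to 2 G2/M genes at 10 CPM. Neither cycle list had a gene past 8-fold between the classes. The median log2 ratio was −0.09 for the G2/M list and 0.13 for the S list. Both directions depended on the epithelial columns, with 1.08 and 1.08 against the Krt8 and Krt18 columns alone and −0.67 and −0.42 against the Krt5 and Krt14 columns alone. Without the skeletal-muscle-like columns the S list median was −0.13.

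**Figure D4:**
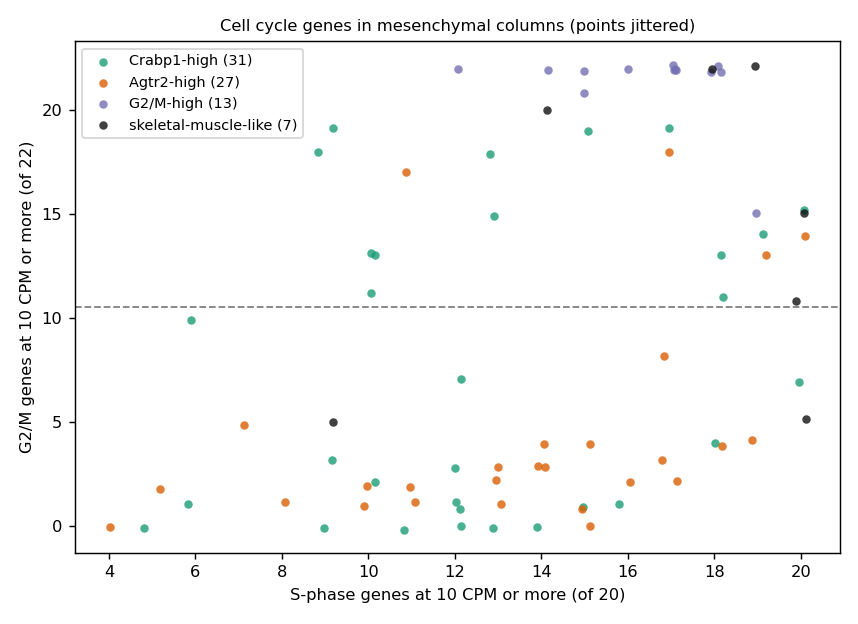
Number of S-phase genes (of 20, x axis) and G2/M genes (of 22, y axis) at 10 CPM or more in each mesenchymal column, colored by cluster, with points jittered. The dashed line lies just under 11 G2/M genes, all 13 G2/M-high columns are above it and 4 of the 27 Agtr2-high columns are.

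Sex-linked genes fell into exclusive patterns. The sum of the Y-linked genes Ddx3y, Eif2s3y, Kdm5d and Uty was at 10 CPM or more in 34 mesenchymal columns, in which Xist, the RNA that silences an X chromosome in females, did not exceed 0.594 CPM. Xist was at 10 CPM or more in 29 columns, in which the Y-linked sum did not exceed 1.20 CPM. In 15 columns neither reached 10 CPM, and 13 of those had more Xist than Y-linked counts. No column had both. All 4 groups held columns of both patterns, with 10 Y-linked and 13 Xist columns in the Crabp1-high group and 14 and 10 in the Agtr2-high group. Of the 72 labels of fibroblast or Vim-high cells, 70 carry the name of 1 embryo, and why both patterns occur among 78 columns was not tested.

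**Figure D5:**
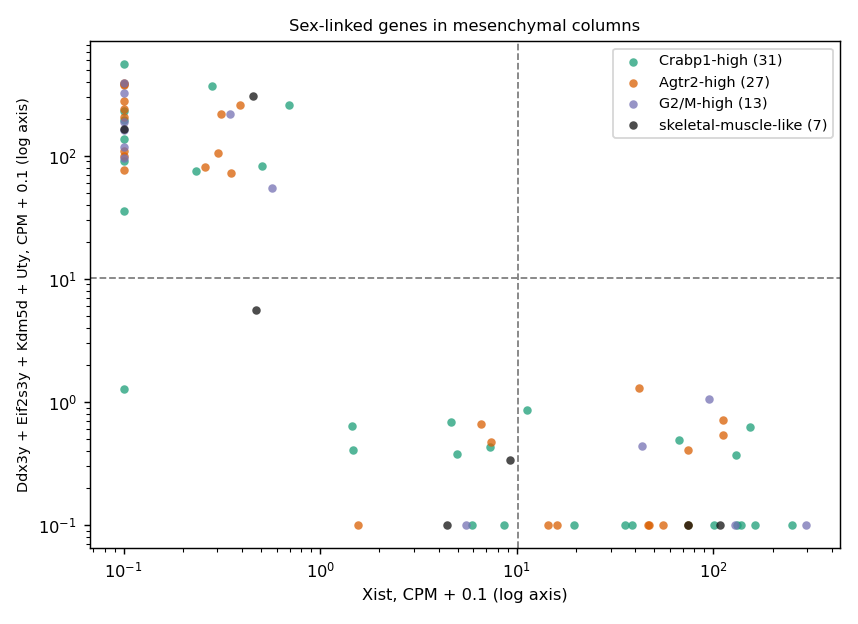
Xist (x axis) against the sum of 4 Y-linked genes (y axis), both as CPM + 0.1 on log axes, for each mesenchymal column colored by cluster. Columns lie either at the upper left or along the bottom, none lies above 10 CPM on both axes, and each cluster is present in both places.

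Hox genes, which record position along the body axis, were present in all 78 mesenchymal columns at 10 CPM or more for at least 1 gene. A column had a median of 4 and at most 10 of the 39 measured Hox genes at this level, and 24 of the 39 reached it in at least 1 column. Hoxc8 was the most frequent (57 of 78 columns), followed by Hoxc5 (45) and by Hoxc4 and Hoxd8 (31 each). Hoxc10 reached 10 CPM in 15 mesenchymal and 0 epithelial columns and Hoxc9 in 28 and 2. Hoxa5 showed the opposite, with 2 mesenchymal and 53 epithelial columns. Of 13 compared Hox genes, 3 were higher and 2 lower. Which body region each cell came from is not in the labels, so region and class cannot be told apart.

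The number of genes with a count depended on depth. With each column thinned to 2500000 counts, mesenchymal columns had between 8383 and 11378 genes (median 10089) and epithelial columns between 4812 and 12180 (median 9438). Without thinning the order of the medians was the opposite, 10759 and 10978 genes. The ranges overlapped in both cases.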

How the data were processed

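Each library held 1 sorted cell of embryonic mouse skin, made with SMART-Seq HT and Nextera XT and sequenced on a HiSeq with 150 bp paired reads. Reads were trimmed by the authors with Trimmomatic and aligned with HISAT2 to mm10, and genes of Ensembl release 97 were quantified with featureCounts. The handling of strand is not given in the sources used here. They deposited estimated counts for 55335 genes in 237 columns, without normalization, and 23.2% of the nonzero values carry a fraction. DESeq2 1.36.0 stands in the submitters' processing notes and was not used here.

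Counts were rounded and scaled to CPM. The CPM of the summed counts of the classes was compared with a pseudocount of 1 CPM, for genes at 10 CPM or more in either sum. Mesenchymal columns were clustered by Ward's method on the first 10 principal components of log2(CPM + 1) of 1000 variable genes. Scripts were tested on simulated data.

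The members and gene lists were chosen with earlier results of these data known. Named genes were the class markers, Vim, Pdgfra and Trp63, the 20 highest and 10 lowest ratios among genes at 100 CPM or more in the higher sum and at 10 CPM or more in at least 80% of its columns, the 20 most variable genes at 10 CPM or more in 20% to 80% of mesenchymal columns, the 5 leading genes of each cluster and list members. Other genes named were chosen after their values were seen. The listed symbols Nov and Leprel1 found no match. Exon lengths and positions came from GENCODE vM21, and sequences from RefSeq. Alternatives changed thresholds, the gene minimum, rounding, totals, the summary of columns, the epithelial class, the pseudocount, the fold and the clustering. The software was scipy 1.17.1, pandas 2.3.3 and numpy 2.4.6 in Python 3.11.15, with figures from matplotlib 3.10.9. Some genes that the rule names are not reported here.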

Additional observations from a re-analysis of the deposited data

Results flagged for a closer look

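Signal of another cell type was found among the 57 columns of neither class, which no comparison used. In 13 of them both collagens were below 100 CPM, and 2 of the 13 had Vim above 1000 CPM, at 3363 and 3002 CPM. Pmel, a melanosome protein, was at 2490 CPM in the first and 8134 CPM in the second, against at most 27.2 CPM in the mesenchymal columns. Of 7 melanoblast genes, 6 were at 10 CPM or more in each, among them Kit (3087 and 5337 CPM) and Dct (2218 and 2051 CPM). The labels list 2 Vim-high cells, and no column was tied to them.

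Col3a1 at 100 CPM or more with Col1a1 below 100 CPM was found in 39 columns of neither class that also had a keratin of the rule at 100 CPM or more. Their median Col3a1 was 442 CPM (range 104 to 3742), against a median of 0.234 CPM in the epithelial columns, which were selected to lie below 100 CPM. In 35 of the 39, Col1a1 had no count. The median of Lum in the 39 was 0 CPM and that of Dcn 297 CPM.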

How the results depend on the processing

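The number of mesenchymal columns was 82 with all thresholds halved and 75 with all doubled, and 78 under the other settings tried. The 4 columns gained by halving are those just outside the rule. With doubling, the columns with Col1a1 at 101, 116, 177 and 188 CPM left. The column with Krt8 at 169 CPM and Krt18 at 192 CPM entered. At a 4-fold limit, 951 genes were higher and 903 lower. With 3 clusters the group with the highest muscle level held 20 columns, joining the skeletal-muscle-like and G2/M-high columns. With 5 clusters, 500 genes or no cell cycle genes it held 7. The other groups were less stable than that one. They held 29, 23 and 19 columns with 500 genes and 32, 20 and 19 without cell cycle genes. With 5 clusters they held 27, 16, 15 and 13. The median number of genes per mesenchymal column minus that per epithelial column was 651 at equal depth and -219 without thinning. Of 385 alternatives for 35 named genes, 65 moved the ratio by more than 1.5 times and 0 turned its sign, and 29 of those moves came with the pseudocount of 0.1 CPM. The largest move was 4.71 on the log2 scale, for Lum with the median of the CPM of the columns in place of the sums. Of 385 alternatives for 35 list medians, 72 moved the median by more than 1.5 times on the ratio scale. Without the skeletal-muscle-like columns, 639 genes were higher and 585 lower. No paired analysis was possible because the columns carry no replicate number, no embryo and no genotype, and no test was run.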

Other observations

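A set of genes known from other cell types was shared by some mesenchymal columns, and these genes were chosen after their values were seen. Kcnj8 reached 10 CPM in 16 columns and Abcc9 in 18, with 13 columns in common, 12 of them in the Agtr2-high group. Only 1 of the 13, the Rgs5-high column, also had Rgs5. Tek, the angiopoietin receptor, reached 10 CPM in 8 columns, up to 860 CPM, all in the Agtr2-high group. None of the 8 had Pecam1, Cdh5, Tie1 or Kdr at 10 CPM.

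Neurofilament genes appeared in a few columns. Nefl reached 10 CPM in 9 columns and Nefm in 7, and all 7 also had Nefl. Of these, 5 of the 9 and 4 of the 7 were among the 7 skeletal-muscle-like columns. Stmn2, a neuronal tubulin-binding protein, reached 10 CPM in 6 columns, none of which had both neurofilament genes. Dpp4 reached 10 CPM in 8 columns and Mfap5 in 10, with 6 columns in common.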
